A study of Mus musculus with 2 samples.

Results

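Polyamine synthesis and turnover were followed in the mouse uterus at gestation day 2.5 (G2.5), before the embryo implants, through the genes Odc1, Amd1, Srm, Sms, Sat1, Azin1, Oaz1, Oaz2, Smox and Paox. These members were chosen by gene symbol, and 7 of the 10 had a row of that symbol among the 14678 genes of the deposited table. Oaz2 was found by its gene identifier, 18247, under the older symbol Oaz2-ps, and it is described beside the 7 but kept out of their counts. Tags of Amd1 and Oaz1 were not analysed here, and these genes enter only a search of start site sequence. The study asked which uterine genes depend on VEGF. All mice were littermate double transgenic females (VEGFtetO/tetO/beta-AKtg/wt), which carry tet operators in the VEGF promoter and express a tetR-Krab repressor in all tissues, so the control mice carry both alleles as well. Dox+ mice ate doxycycline chow, which takes the repressor off the promoter, and their label calls them VEGF-normal (wild type). Dox- mice ate chow without doxycycline and were VEGF-repressed. The paper states that breeding was kept on doxycycline chow. It was withdrawn from the Dox- mice when they were young, weeks before the uteri were taken, and both groups were of like age. Equal amounts of total RNA from 3 uteri were pooled per condition and 1 digital gene expression (DGE) library was sequenced from each pool. Because the chow set both, doxycycline itself and VEGF level cannot be told apart.

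The polyamines putrescine, spermidine and spermine are small, positively charged molecules that bind RNA and DNA and that growing cells need. Ornithine decarboxylase (Odc1) makes putrescine from ornithine, and spermidine synthase (Srm) and spermine synthase (Sms) add aminopropyl groups taken from decarboxylated S-adenosylmethionine. Antizymes (Oaz genes) bind ornithine decarboxylase and lead it to the proteasome, antizyme inhibitor (Azin1) releases it, and Sat1, Smox and Paox acetylate or oxidise spermidine and spermine. Uterine ornithine decarboxylase is known to be induced around implantation and in the decidua.

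The deposited counts are tags per gene, and the clean tags that the deposited TPM values (tags per 1000000 clean tags) imply, 5985925 in Dox+ and 5844314 in Dox-, were taken as library sizes. Of these, 74.1% and 72.2% were counted to a gene. Vegfa, the repressed gene, had 247 tags in Dox+ and 125 in Dox-. With 1 library per condition no value has a replicate check and no test between the conditions exists, so differences are described by the ratio of tags per clean tag. The 95% intervals beside the ratios and levels cover counting error only. A gene was called past the threshold at a ratio of at least 1.5 in either direction, among the 6547 genes with at least 200 combined tags. In pooled whole uterus, fewer cells of a type and less RNA per cell cannot be told apart.

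Of the 7 polyamine genes found by symbol, Srm alone was past 1.5-fold in the Dox- library, and the rate-limiting Odc1 had nearly equal counts in both libraries. All 7 genes had at least 200 combined tags, 1 of them was called higher and 0 lower, while 29.9% of all genes compared were called, 15.2% higher and 14.7% lower. At 2-fold 0 of the 7 genes and 10.2% of all genes compared were called. The median log2 ratio, Dox- over Dox+, was 0.02 over the 7 genes and 0.03 over all genes compared. The quartiles of all genes compared lay at -0.36 and 0.40, and 6 of the 7 polyamine genes had log2 ratios between them. The intervals of 2 of the 7 ratios, Srm and Sat1, left out 1, as did those of 66.2% of all genes compared.

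**Figure D1:**
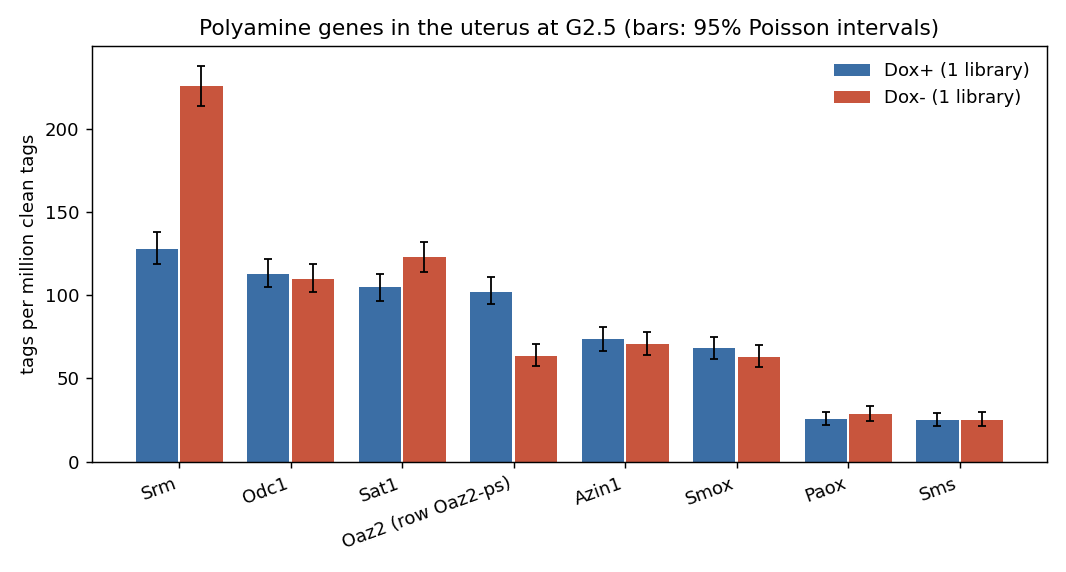
Tags per 1000000 clean tags (TPM, linear axis from 0) of the 8 polyamine genes with a row, in the Dox+ library (blue) and the Dox- library (red), with 95% Poisson intervals that cover counting error only. Srm stands at 128 in Dox+ and 226 in Dox-, Oaz2 at 102 and 63.8, and the paired bars of Odc1, Azin1, Smox, Paox and Sms have overlapping intervals.

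Among the synthesis genes, Odc1 (chromosome 12, 17551679 to 17558308, plus strand, on NCBIM37, the assembly called mm9) had 676 tags in Dox+ and 642 in Dox-. These counts equal 113 TPM (95% interval 105 to 122) and 110 (102 to 119), and the intervals overlap. The ratio of Odc1 was 0.973 (0.872 to 1.09), so that a difference was not detectable at this depth, and its interval lay wholly inside 1.5-fold. Srm (chromosome 4, 147965612 to 147969102, plus strand), the enzyme that turns putrescine into spermidine, had 768 tags in Dox+ and 1319 in Dox-. Its level was 128 TPM (119 to 138) in Dox+ and 226 (214 to 238) in Dox-, without overlap. The ratio of Srm was 1.76 (1.61 to 1.93), a log2 ratio of 0.81 that was higher than that of 91.9% of the genes compared, and the whole interval lay past 1.5. Sms (chromosome X, 153881787 to 153930219, minus strand), the next enzyme of the chain, had 150 tags in Dox+ and 148 in Dox-, a ratio of 1.01 (0.80 to 1.28). The spermidine and the spermine synthase genes thus stood apart within a library as well, where the total plays no part. Tags of Srm per tag of Sms were 5.12 (4.29 to 6.14) in Dox+ and 8.91 (7.51 to 10.6) in Dox-, and tags of Srm per tag of Odc1 were 1.14 (1.02 to 1.26) and 2.05 (1.87 to 2.26).

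**Figure D2:**
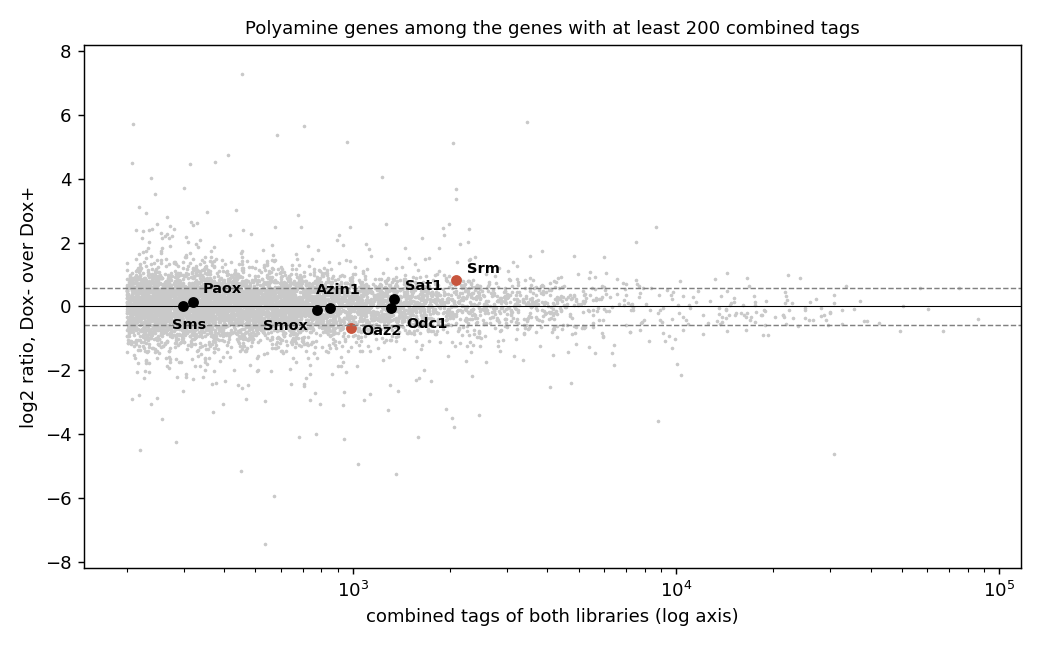
Log2 ratio, Dox- over Dox+, against the combined tags of both libraries (log axis) for the 6547 genes with at least 200 combined tags, each a grey point, with the polyamine genes named and the dashed lines at 1.5-fold. Srm at 0.81 and Oaz2 at -0.68 lie outside the dashed lines (red points) and Sat1, Odc1, Azin1, Smox, Paox and Sms lie inside (black points).

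Odc1 and Srm are known targets of the MYC transcription factors, which bind the E-box CACGTG, and the start of each gene is shown for this reason. The 6 letters, which read the same on both strands, were searched from 250 bases before to 750 bases after the start site. The start site was that of the longest coding transcript, or of the longest annotated one where none was coding. The window held 5 matches in Srm, 2 in Odc1, 1 in Sms and 1 in Azin1, and none in Sat1, Smox, Paox, Oaz2, Oaz1 and Amd1. Of 22381 genes searched, 16.8% held at least 1 match and 2.38% at least 2. At least 5 matches, a cutoff taken from the count of Srm itself, were held by 5 genes, Srm included. Capitals mark the matches in the following stretches of NCBIM37, each written 5′ to 3′ on the plus strand.
Odc1, intron of both annotated transcripts, chr12:17551984-17552069: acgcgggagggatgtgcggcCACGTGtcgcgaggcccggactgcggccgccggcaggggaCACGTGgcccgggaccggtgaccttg
Srm, upstream of the start site, chr4:147965420-147965465: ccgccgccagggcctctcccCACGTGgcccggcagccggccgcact
Srm, intron of the coding transcript, chr4:147965938-147966099: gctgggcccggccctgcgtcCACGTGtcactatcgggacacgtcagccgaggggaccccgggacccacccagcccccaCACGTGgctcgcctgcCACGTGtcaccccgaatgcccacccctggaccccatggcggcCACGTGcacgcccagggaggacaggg
Both Odc1 matches lie in its first intron, the nearer beginning 326 bases and the farther 366 bases from the start site. In Srm 1 match lies upstream, 172 bases before the start site, and 4 begin 347 to 463 bases after it, the last 2 of which also fall in an exon of another annotated transcript. A match of letters is a description of the sequence, and no binding was measured.

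Mycn, one of the MYC genes, had 14 tags in Dox+ and 299 in Dox-, a ratio of 21.9 (12.8 to 40.5). Myc, the member of the list with the most tags, went the other way with 495 and 398 tags, a ratio of 0.824 (0.72 to 0.942), and its partner Max had 434 and 363. Mxd3, a MAX partner that opposes MYC, had 80 and 134 tags, a ratio of 1.72 (1.29 to 2.29). Of 10 listed genes of the MYC network, 8 had at least 200 combined tags, of which 2, Mycn and Mxd3, were called higher and 0 lower, a share near the 29.9% of all genes compared, and the median log2 ratio was 0.17. The role of any of them in the Srm difference was not tested.

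The regulators of ornithine decarboxylase divided between an antizyme inhibitor with like counts and an antizyme that was lower in Dox-. Azin1 (chromosome 15, 38417185 to 38449021, minus strand), which frees ornithine decarboxylase from antizyme, had 440 tags in Dox+ and 413 in Dox-, a ratio of 0.961 (0.839 to 1.10). Oaz2 (chromosome 9, 65515808 to 65538107, plus strand), an antizyme of broad tissue expression, had 613 tags in Dox+ and 373 in Dox-. Its level was 102 TPM (94.5 to 111) in Dox+ and 63.8 (57.5 to 70.6) in Dox-, without overlap. Oaz2 was 1.60-fold lower in Dox-, and the interval of this fold, 1.41 to 1.83, holds 1.5. The log2 ratio of -0.68 was higher than that of 11.9% of the genes compared. Counting Oaz2 among the members would give 2 called of 8, beside 29.9% of all genes compared. Within the libraries, tags of Odc1 per tag of Oaz2 were 1.10 (0.987 to 1.23) in Dox+ and 1.72 (1.51 to 1.96) in Dox-, while tags of Odc1 per tag of Azin1 were 1.54 (1.36 to 1.74) and 1.55 (1.37 to 1.76). The Odc1 and Oaz2 pair was chosen after its values were seen, in place of Odc1 and Oaz1.

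Because the row carried a pseudogene symbol and GENCODE types its transcript as a transcribed unprocessed pseudogene, the sequence was searched for the shift site that marks an antizyme. Antizyme genes are known for a stop codon inside the reading frame, passed by a shift of the ribosome when polyamines are high. The exons of Oaz2-001 hold 1 such site, shown with the codon before the stop and the stop codon TGA in capitals, from NCBIM37, plus strand.
Oaz2, exon, chr9:65534049-65534108: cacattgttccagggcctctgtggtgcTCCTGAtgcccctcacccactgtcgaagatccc
An open frame of 32 codons precedes the TGA, and the frame read after a shift by 1 base runs for 157 codons to its stop. RefSeq names gene 18247 Oaz2 and lists Oaz2-ps among its synonyms, and it also gives the symbol Oaz2-ps to a pseudogene elsewhere. Tags from a near-identical copy remain possible for this row where that copy was absent from the reference, since only unambiguous tags were counted.

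The turnover genes had smaller differences. Sat1 (chromosome X, 151647675 to 151650992, minus strand), the acetyltransferase that starts the return path from spermine and spermidine, had 626 tags in Dox+ and 719 in Dox-. The ratio of Sat1 was 1.18 (1.06 to 1.31), so its interval left out 1 and lay wholly inside 1.5-fold. Smox (chromosome 2, 131317232 to 131351658, plus strand), which oxidises spermine directly, had 408 and 369 tags, a ratio of 0.926 (0.802 to 1.07). Paox (chromosome 7, 147311556 to 147320233, plus strand), the oxidase of acetylated polyamines, had 154 and 167 tags, a ratio of 1.11 (0.887 to 1.39). Neither oxidase had a difference detectable at this depth, and both intervals lay wholly inside 1.5-fold.

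As a set, the 7 genes held 3222 tags in Dox+ and 3777 in Dox-, or 538 and 646 TPM, a ratio of 1.2 (1.15 to 1.26). Without Srm they held 2454 and 2458 tags, a ratio of 1.03 (0.97 to 1.09). Synthesis genes (Odc1, Srm and Sms) made up 49.5% of the polyamine tags in Dox+ (Clopper-Pearson interval 47.7 to 51.2) and 55.8% in Dox- (54.2 to 57.4). Turnover genes (Sat1, Smox and Paox) made up 36.9% (35.2 to 38.6) and 33.2% (31.7 to 34.8). Srm by itself went from 23.8% to 34.9% of these tags, and with Srm left out the synthesis share was 33.7% in Dox+ and 32.1% in Dox-, with overlapping intervals.

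Levels between the genes are given first per kilobase of the longest coding transcript and then in TPM, the order that is read here. For Oaz2, without a coding transcript, the longest annotated one was used. In Dox+, Srm had 95.9 TPM per kilobase and Sat1 90.0, and their intervals overlapped. Oaz2 followed at 55.5, Odc1 at 44.3 and Smox at 29.6, each apart from its neighbours, then Azin1 at 15.1 and Paox at 14.6, which overlapped, and Sms at 6.74. In Dox- Odc1 at 43.1 TPM per kilobase stood above Oaz2 at 34.6 without overlap, and Paox at 16.2 and Azin1 at 14.5 overlapped again. The order per kilobase comes from the division by length. Over 13857 genes with a tag in Dox+, tags did not follow transcript length (Spearman rho of -0.0447, a description across genes). The order per kilobase is therefore not read as an order of transcript levels. In TPM, without that division, Odc1 lay above Oaz2 in both libraries, at 113 and 102 in Dox+ with overlapping intervals and at 110 and 63.8 in Dox- without overlap. The order in TPM in Dox+ was Srm at 128, Odc1, Sat1 at 105, Oaz2, Azin1 at 73.5, Smox at 68.2, Paox at 25.7 and Sms at 25.1, and the intervals of neighbours overlapped except between Oaz2 and Azin1 and between Smox and Paox. In Dox- Srm at 226 TPM stood apart above Sat1 at 123 and Odc1, which overlapped, and Azin1 at 70.7, Oaz2 and Smox at 63.1 overlapped below them. Measured against all genes with a tag, Srm stood at percentile 93.1 of the tag counts in Dox+ and 96.3 in Dox-, Odc1 at 91.9 and 91.5, and Sms at 64.1 and 64.0.

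Genes that supply the precursors included several past the threshold in opposite directions. Of 10 listed genes of arginine and ornithine handling, 9 were in the table and 6 had at least 200 combined tags. Of these, 1 was called higher and 4 lower, beside 15.2% and 14.7% of all genes compared. Their median log2 ratio was -1.29, and it was 0.15 over the 9 genes without the filter on tags. Slc7a1, the widespread importer of arginine and lysine, had 151 tags in Dox+ and 392 in Dox-, a ratio of 2.66 (2.20 to 3.23). Slc7a2, another cationic amino acid transporter, had 177 and 53 tags and was 3.26-fold lower (2.39 to 4.52). Asl, which makes arginine from argininosuccinate, had 712 and 190 tags, 3.66-fold lower (3.11 to 4.32), and Gatm, which draws arginine into creatine synthesis, had 174 and 41, 4.14-fold lower (2.93 to 5.97). Arg2, the mitochondrial arginase that releases ornithine, had 295 and 158 tags, 1.82-fold lower (1.5 to 2.23). The cytosolic arginase Arg1 had 9 and 98 tags, a ratio of 11.2 (5.64 to 25.1), but with fewer than 200 combined tags it lies outside the counts and was named after its values were seen. Oat, the ornithine aminotransferase and the gene of this list with the most tags, had 947 and 1028 tags, a ratio of 1.11 (1.02 to 1.22). Arg1 and Arg2 thus differed in opposite directions, as did Slc7a1 and Slc7a2, with Arg1 below the filter on tags.

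**Figure D3:**
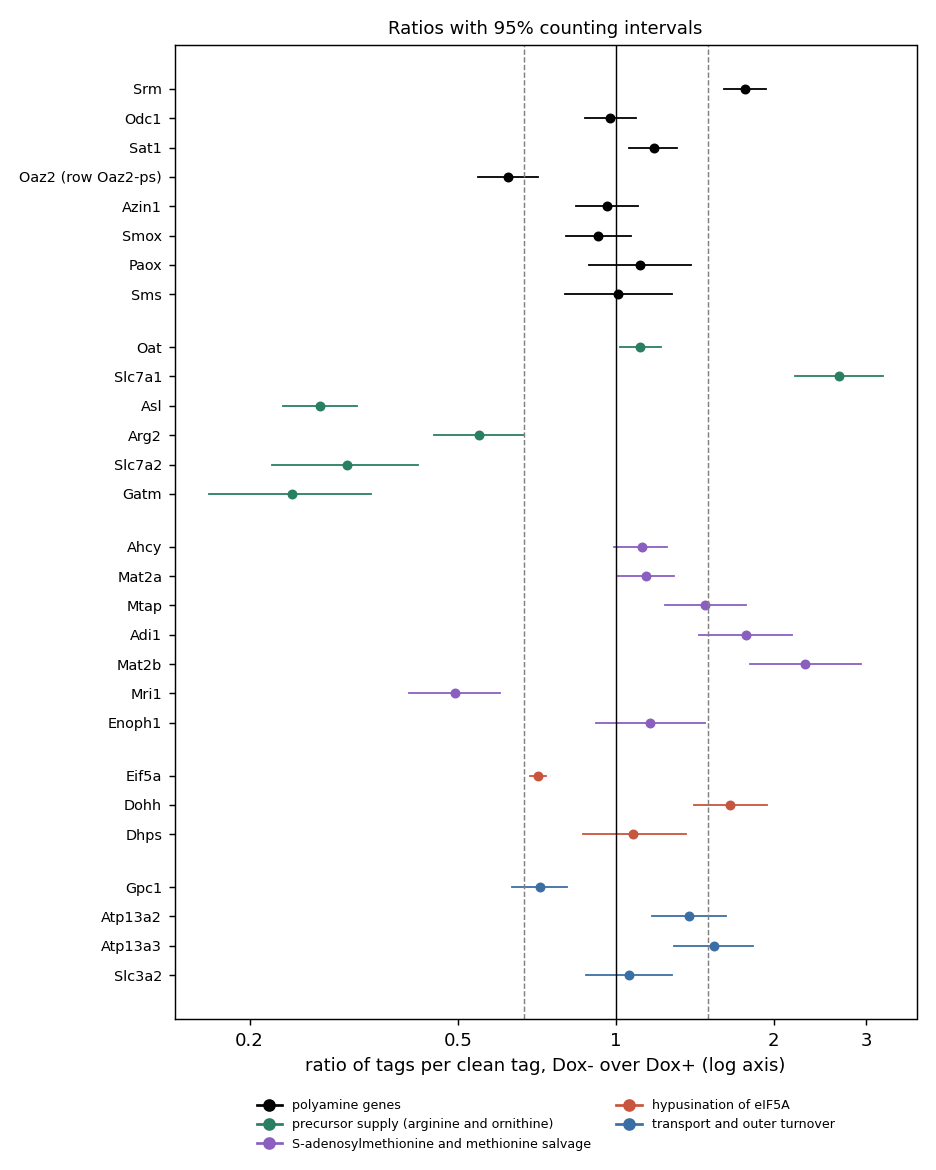
Ratio of tags per clean tag, Dox- over Dox+ (log axis), with 95% Clopper-Pearson counting intervals, for the polyamine genes (black) and the listed genes of neighbouring steps with at least 200 combined tags (colours by list). The dashed lines are at 1.5-fold in each direction. Slc7a1 at 2.66 and Mat2b at 2.30 lie farthest right and Gatm, Asl and Slc7a2 farthest left, while most polyamine genes lie near 1.

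On the side of S-adenosylmethionine, which gives the aminopropyl groups, 7 of 9 listed genes had at least 200 combined tags. Of these, 2 were called higher and 1 lower, beside 29.9% of all genes compared, with a median log2 ratio of 0.22. Mat2a, the catalytic subunit that makes S-adenosylmethionine outside the liver, had 504 tags in Dox+ and 563 in Dox-, a ratio of 1.14 (1.01 to 1.29). Its regulatory partner Mat2b had 99 and 222 tags, a ratio of 2.30 (1.80 to 2.94). Ahcy, with the most tags of the list, had 556 and 606. In the salvage of methylthioadenosine, the by-product of spermidine and spermine synthesis, Mtap had 207 and 299 tags, a ratio of 1.48 (1.24 to 1.77) just short of the threshold. Further along this route Adi1 had 152 and 262 tags, a ratio of 1.77 (1.44 to 2.17), and Mri1 had 316 and 152, 2.03-fold lower (1.67 to 2.48).

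Spermidine also serves to modify the translation factor eIF5A with hypusine. Dhps, which carries out the first step, had 156 tags in Dox+ and 165 in Dox-, a ratio of 1.08 (0.865 to 1.36). Dohh, which completes hypusine, had 249 and 402 tags, a ratio of 1.65 (1.41 to 1.94), and Eif5a itself had 8196 and 5675 tags, 1.41-fold lower (1.36 to 1.46) and short of the threshold. Of the 4 listed genes 3 had enough tags, with 1 called higher and 0 lower, a share near the 29.9% of all genes compared. The median log2 ratio was 0.12. For polyamine transport and outer turnover, 4 of 12 listed genes had enough tags. Of these, 1 was called higher and 0 lower, again near that share, with a median log2 ratio of 0.27. The called gene was Atp13a3, a transporter of polyamines, with 220 and 330 tags and a ratio of 1.54 (1.29 to 1.83). Its relative Atp13a2, the lysosomal polyamine exporter, had 261 and 351 tags, a ratio of 1.38 (1.17 to 1.62), and Gpc1, a heparan sulfate proteoglycan with the most tags of the list, had 649 and 453. Adc, an older symbol of the paralog Azin2, had 39 and 24 tags.

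Markers of the cell types in whole uterus differed between the same libraries, and their part in the Srm, Oaz2 and arginine differences was not tested. Of all genes compared, 15.2% were called higher and 14.7% lower, the shares that stand beside the counts below. All 8 epithelial markers were measured, 4 were called higher and 0 lower in Dox-, and their summed level was 894 TPM in Dox+ and 1445 in Dox-. The 6 smooth muscle markers, with 0 called higher and 2 lower, summed to 6215 and 4333. The 8 stromal markers, with 1 higher and 3 lower, summed to 8842 and 10060. The higher stromal sum in Dox- came from Col1a1, a collagen gene at 3845 and 5766 TPM, since the other 7 summed to 4996 and 4294 and the median log2 ratio of the list was -0.25. Col1a1 itself fell just short of 1.5-fold, and the stromal gene called higher was Lum, at a ratio of 1.84 (1.73 to 1.96). The stromal genes called lower were Hoxa10 and Hoxa11, homeobox genes of uterine stroma, and Vim. They were 2.87-fold (2.68 to 3.08), 3.2-fold (2.95 to 3.47) and 1.52-fold (1.43 to 1.61) lower. The endothelial markers summed to 181 and 120, with 2 of 3 compared genes lower. The leukocyte markers summed to 54.5 and 91.9, but only Lyz2 had enough tags to be compared, and its ratio of 1.36 was not called. The red blood cell markers summed to 11.0 and 35.6, and none had enough tags to be compared. Hba-a1 had 26 tags in Dox+ and 114 in Dox-, and Hba-a2 had 19 and 82, while Alas2 went the other way with 21 and 9. Hbb-b2 had no tag in Dox+, a count of 0 that does not show absence. It lay under the floor of 3 tags, or 0.501 TPM in Dox+, that the ratios used. Of 10 proliferation genes 8 were compared, 5 were called higher and 0 lower, with a median log2 ratio of 0.90 and a summed level of 408 TPM in Dox+ and 617 in Dox-. The called genes were Mki67 with a ratio of 2.9, Ccna2 with 2.02, Ccnb1 with 2.01, Top2a with 1.88 and Cdk1 with 1.84, all known to peak late in the cell cycle, while Pcna, which has the most tags of the list and acts in DNA replication, had 747 and 810 tags, a ratio of 1.11.

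**Figure D4:**
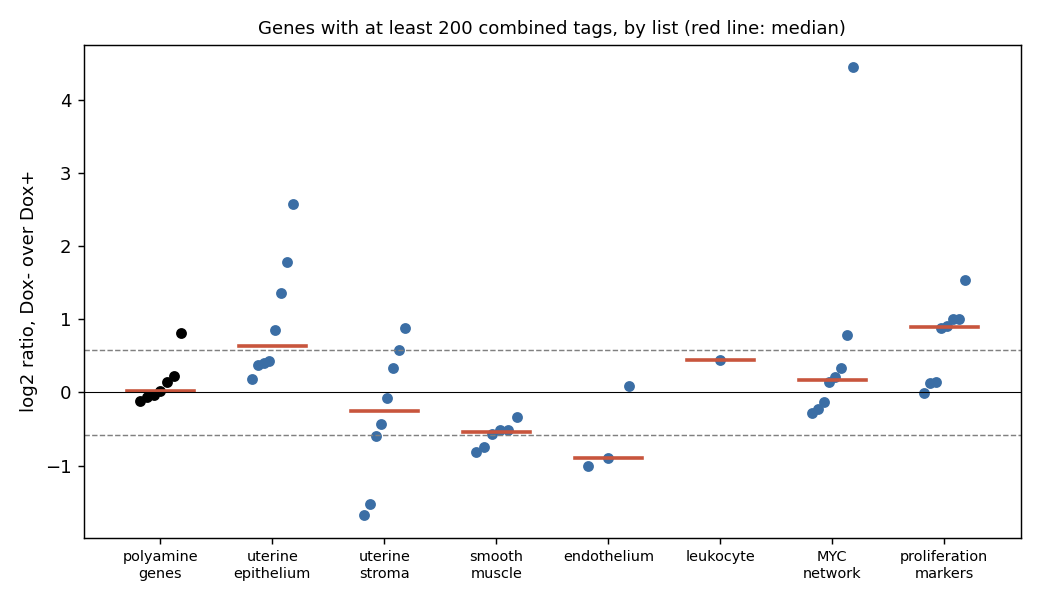
Log2 ratio, Dox- over Dox+, of each gene with at least 200 combined tags in the polyamine genes (black), the cell type markers, the MYC network and the proliferation genes (blue), with the median of each list as a red line and dashed lines at 1.5-fold. The polyamine genes lie around a median of 0.02, the proliferation genes around 0.90, and Mycn stands at 4.45.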

How the data were processed

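Total RNA of 3 uteri per condition was pooled and sequenced as 1 DGE library each. The authors discarded tags that were adaptor alone, of low quality or of a copy number below 2, matched clean tags to mouse mm9 reference mRNA and deposited counts of unambiguous tags per gene. The deposited TPM is the count per 1000000 clean tags, uncorrected for length and set by the authors to 0.01 for genes without a tag. The log2 ratio, the ratio in both directions, the P-value, the FDR and the summed counts deposited by the authors were not used. CASAVA is named in the submitters' processing notes, and the aligner and enzyme are not given in the sources used here, nor whether the counts hold antisense tags. The labels mention mRNA fragmentation, which DGE tags do not need, and this was not resolved.

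Library totals were the whole numbers that return every deposited TPM from its count. Ratios used counts without a pseudocount, at most 3 tags being set to 3. Intervals were exact (Poisson for levels, Clopper-Pearson for splits) at 95%. Members and lists were chosen with earlier results of these data known. All members were named, and of each pathway list the compared genes past 1.5-fold and the gene with the most tags. Max, Mat2a, Mtap, Dhps, Atp13a2 and Adc were named outside this rule, as were Arg1 and Apip. Older and current symbols of 1 gene were counted once. Alternatives were other totals (counted tags, TMM of edgeR 4.0.16, size factors of DESeq2 1.42.0), filters of 100 combined tags or none, a pseudocount of 1, TPM, and other call rules, among them the Audic-Claverie test of the study at an FDR below 0.05. The interval and call steps were tested on simulated data drawn with counting error only, so spread between pools was not covered. Gene models and sequences were those of GENCODE vM1 on NCBIM37, and gene identifiers were matched to RefSeq. Python 3.11.15, scipy 1.17.1, pandas 2.3.3 and R 4.3.3 were used.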

Additional observations from a re-analysis of the deposited data

How the results depend on the processing

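Each call and ratio of the polyamine genes stayed within its counting interval under every other library total and the pseudocount of 1. Deposited TPM gave the same ratios up to rounding, because the library totals were derived from it. It is counted among the alternatives but is no separate check. With a threshold of 2-fold 0 polyamine genes were called, and with Oaz2 included by gene identifier, an addition made after seeing the data, 2 were called. The log2 ratio of Srm ranged from 0.78 to 0.85 over the totals. Leaving out Srm, also added after seeing the data, moved the synthesis share to 33.7% in Dox+ and 32.1% in Dox-, and adding Oaz2 tags to the total moved it to 41.6% and 50.8%. The median of the arginine and ornithine list rested on the copy filter, since it was -0.36 from 100 combined tags and 0.15 without a filter, where more genes are compared. Without a filter 5 transport genes were past 1.5-fold, beside 2869 higher and 2830 lower among all 13727 genes so compared. The other 136 of 145 alternatives moved a gene's ratio within its interval, a count within 1.5 times, or a list's median log2 ratio by less than a tolerance of 0.22 to 0.37, the mean distance from the interval's middle to its bounds for the middle genes of that list. No scaling moved the median of all genes by over 0.1. The planned ratio of Odc1 to Oaz1, its alternative with both antizymes, and the share without Oaz1 were not run, since Oaz1 was not analysed here. No paired analysis was possible because each condition is 1 library. Depth limited Sms and Paox most, with 298 and 321 combined tags and ratios bounded by 0.8 to 1.28 and 0.887 to 1.39.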

Other observations

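Beyond the members, 3 rows of the table carried a Gene Ontology term naming polyamines, chosen by that term after the table was seen. Adc had 39 tags in Dox+ and 24 in Dox-, a ratio of 0.63 (0.363 to 1.07). Taf7, a subunit of the general transcription factor TFIID, had 41 and 33, a ratio of 0.824 (0.505 to 1.34). The row of Gm15645, whose best protein match in the table is an ornithine decarboxylase, had 8 and 10 tags, against 676 and 642 of Odc1. None of the 3 intervals left out 1. Apip, which acts in methylthioadenosine salvage and fell below the copy filter, had 25 tags in Dox+ and 84 in Dox-, a ratio of 3.44 (2.18 to 5.62), and was named after its values were seen.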
